A study of Mus musculus with 4 samples.

Results

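The immediate early genes described here are the 10 genes Fos, Fosb, Jun, Junb, Jund, Egr1, Atf3, Ier2, Nr4a1 and Dusp1. They were chosen by symbol, and all 10 were found among the 31053 genes of the count matrices. Their UMIs (unique molecular identifiers, which count captured RNA molecules) were read in 4 single-cell RNA sequencing libraries of mouse bone, in barcodes with 1000 to 40000 UMIs of which at most 10% came from mitochondrial genes. The 4 libraries came from tibiae and femurs of wild-type mice, which the study's methods name as C57BL/6J. The marrow was flushed out before the bone was digested into single cells. The HLU group (hindlimb unloading, n = 2) was suspended by the tail for 28 days, and the Ctrl group (n = 2) was the control without suspension. The methods give an age of 8 weeks when unloading began, whereas the design text places the sequencing at postnatal day 28, so the age is uncertain. Each library is 1 labelled replicate, and Ctrl 1, Ctrl 2, HLU 1 and HLU 2 are its names below.

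Immediate early genes are transcribed within minutes of a stimulus, without new protein synthesis, from factors that are already present in the cell. Fos, Fosb, Jun, Junb and Jund encode subunits of the dimeric transcription factor AP-1, and Atf3 encodes a related factor that can bind the same kind of DNA site. Egr1 is a zinc finger factor, Nr4a1 is an orphan nuclear receptor, Ier2 is a nuclear protein of the early response, and Dusp1 is a phosphatase that switches off MAP kinases. AP-1 and its upstream kinases are known for their part in osteoclast formation and in the response of bone cells to load. Enzymatic dissociation of a tissue is also known to induce them, and its part in the levels given here was not tested.

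The promoters are shown for 3 genes with the largest differences between the neutrophil stages described below, Dusp1, Atf3 and Junb, and for Fos, which did not pass that test. The 250 bases before 1 transcription start per gene are from RefSeq (GRCm38.p6). The Dusp1 and Atf3 windows lie inside the gene intervals given below, where 6 and 3 transcripts are annotated. Any other starts of these genes were not searched. Capitals mark the letters TGACGT, 6 of the 8 letters of the cyclic AMP response element, in either orientation (ACGTCA on the opposite strand), and the letters TATAAA of a TATA box. The windows are Dusp1 at chr17:26508473-26508722 and Atf3 at chr1:191183334-191183583, both on the minus strand, Junb at chr8:84978749-84978998 on the minus strand, and Fos at chr12:85473640-85473889 on the plus strand.
Dusp1: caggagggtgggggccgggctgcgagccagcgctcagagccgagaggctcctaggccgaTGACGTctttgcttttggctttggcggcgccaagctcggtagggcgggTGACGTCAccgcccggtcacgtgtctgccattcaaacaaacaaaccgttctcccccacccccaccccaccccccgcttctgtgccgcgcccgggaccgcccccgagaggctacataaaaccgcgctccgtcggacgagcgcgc
Atf3: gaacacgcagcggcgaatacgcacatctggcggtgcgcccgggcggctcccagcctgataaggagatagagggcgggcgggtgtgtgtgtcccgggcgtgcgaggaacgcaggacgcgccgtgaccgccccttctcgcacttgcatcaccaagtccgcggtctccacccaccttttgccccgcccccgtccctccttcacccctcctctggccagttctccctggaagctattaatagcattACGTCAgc
Junb: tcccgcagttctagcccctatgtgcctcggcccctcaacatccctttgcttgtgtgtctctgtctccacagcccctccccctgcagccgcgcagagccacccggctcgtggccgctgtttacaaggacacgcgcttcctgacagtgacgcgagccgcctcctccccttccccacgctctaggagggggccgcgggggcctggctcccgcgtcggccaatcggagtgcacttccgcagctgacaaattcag
Fos: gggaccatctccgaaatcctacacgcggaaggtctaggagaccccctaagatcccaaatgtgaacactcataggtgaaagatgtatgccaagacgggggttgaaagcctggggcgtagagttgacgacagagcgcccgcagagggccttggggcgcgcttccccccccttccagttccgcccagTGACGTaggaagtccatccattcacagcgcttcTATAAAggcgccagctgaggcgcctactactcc
In the Fos window TGACGT began 66 bases and TATAAA 33 bases before the start. The Dusp1 window held TGACGT at 191 and at 143 bases, the latter within the full palindrome TGACGTCA, and the Atf3 window held ACGTCA at 8 bases before the start. None of these letters was found in the Junb window. A RefSeq window was found for 8 of the 10 genes. TGACGT, searched on both strands, was in 3 of these 8 and in 6.469% of all 32851 windows. The 8-letter palindrome was in 1 of the 8 and in 1.546% of all windows, TATAAA was in 1 of the 8 and in 12.37%, and the AP-1 letters TGACTCA were in 0 of the 8 and in 4.463%.

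In the GENCODE annotation of GRCm38 the 10 genes lie on 8 chromosomes, and 3 of them on chromosome 8. Fos is at chr12:85473890-85477273, Fosb at chr7:19302696-19310051 and Jun at chr4:95049034-95052222. Junb is at chr8:84974484-84978718, Jund at chr8:70698949-70700616 and Ier2 at chr8:84661331-84662852. Junb and Ier2 are 311631 bases apart. Atf3 is at chr1:191170296-191218039, Nr4a1 at chr15:101254269-101274795, Dusp1 at chr17:26505590-26562128 and Egr1 at chr18:34859823-34864984. Jun, Jund and Ier2 have 1 exon.

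From 10000 to 10003 barcodes per library, 7340 to 9485 were kept, 32217 in all, with medians of 3799 to 6295 UMIs. Between 13 and 21 barcode sequences were shared by any pair of libraries, at most 0.275% of the kept barcodes of either. Clusters were named from marker lists and were built without the 10 genes, and 10 cell types held at least 20 cells in every library. The HLU libraries held few stromal cells, a term used here for mesenchymal stromal cells (MSC), chondrocytes, smooth muscle cells and a stromal cluster led by Myoc and Apod. Their share was 48.7% and 32.0% in Ctrl and 1.61% and 2.49% in HLU. Blood cells of the Ctrl libraries also carried stromal RNA. Levels are given as CPM, the UMIs of a gene in a cell type of a library scaled to 1000000 UMIs of that cell type. The summed level of 27 stromal markers in stage II neutrophils was 1988 and 1938 CPM in Ctrl and 92.9 and 24.4 in HLU, and in B cells it was 20023 and 12636 against 43.2 and 50.4. These values move with HLU in every cell type, and their part in the results on unloading was not tested.

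The 10 genes together took the largest share of RNA in the Myoc and Apod cluster (1185 cells). Their summed level there was 6042 and 7313 CPM in Ctrl and 3557 and 3949 in HLU. It was above that of stage II neutrophils, the next type, in 4 of 4 libraries, by 0.95 ± 0.56 on the log2 scale (SD, n = 4). Neutrophil progenitors had the lowest sum among the 10 types, 970 ± 260 CPM (SD, n = 4), against 2825 ± 1178 in stage II neutrophils, 2592 ± 731 in chondrocytes, 2344 ± 452 in MSC and 2133 ± 548 in monocytes. The libraries are 3′ end counts, so gene length was not divided out. The Myoc and Apod cluster held only 21 and 37 cells in HLU, and 48.7% of the cells of HLU 2 in it were putative doublets. Its cells were also unlike between the groups. Dcn, a stromal marker gene, was at 16947 and 14268 CPM there in Ctrl and at 33.4 and 3071 in HLU. It had a UMI in 99.65% and 98.9% of these cells in Ctrl and in 14.29% and 27.03% in HLU. The part of this difference in the levels was not tested.

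**Figure D1:**
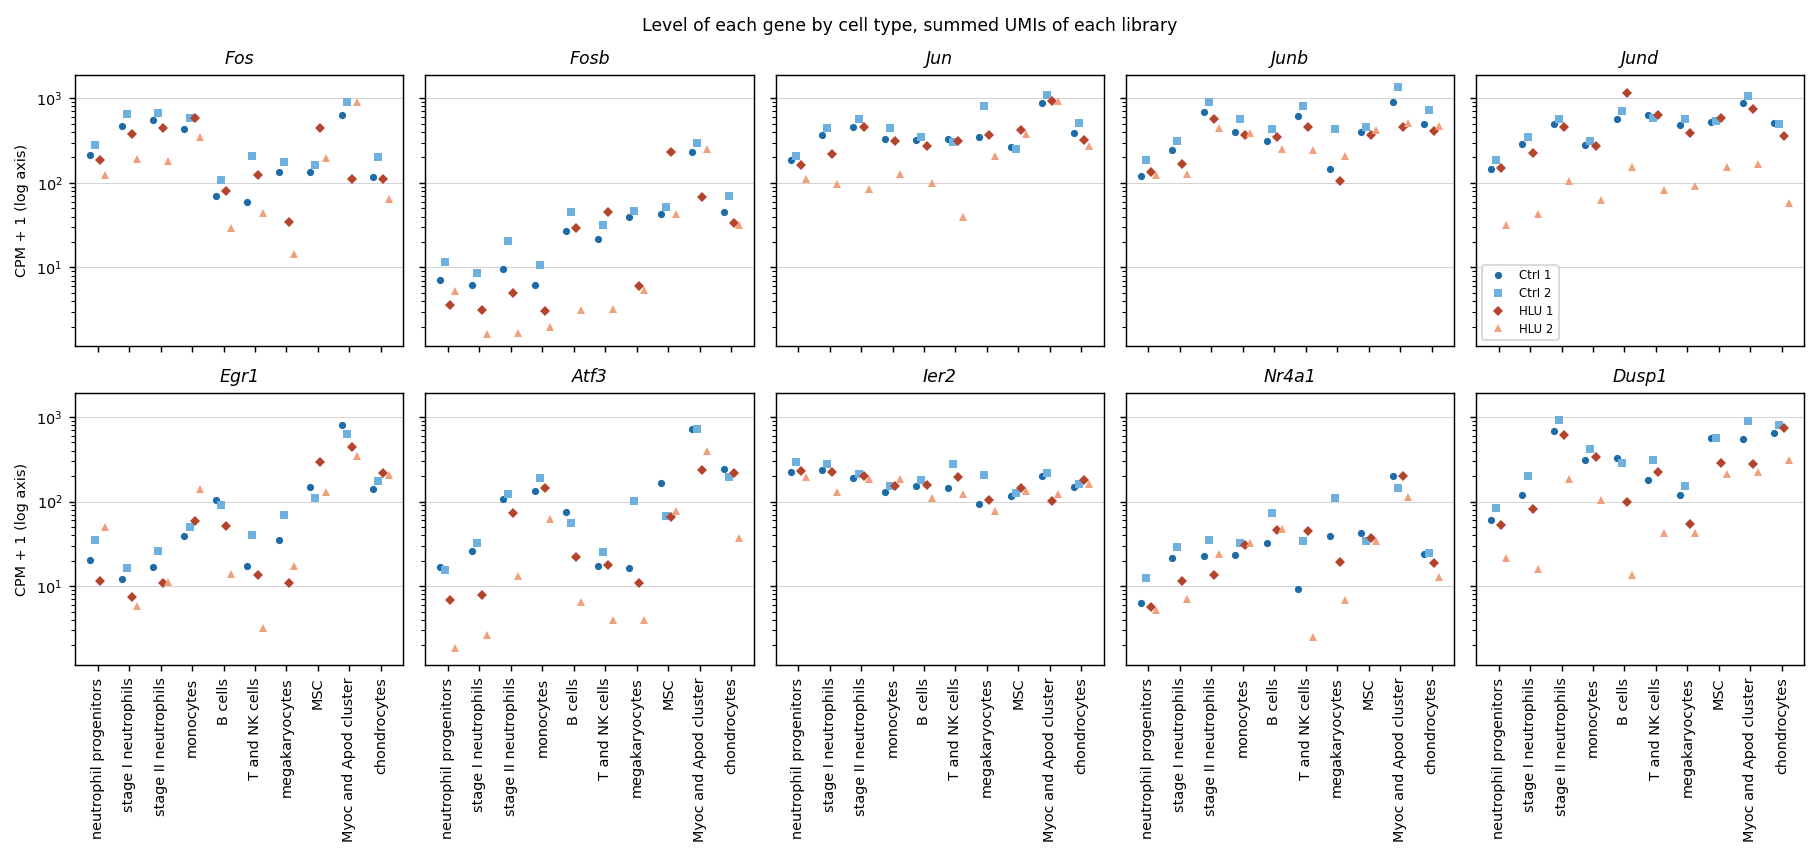
Level of each immediate early gene (CPM, log axis) in the 10 cell types, with 1 point per library and the 4 libraries told apart by colour and marker. The Myoc and Apod cluster is highest by mean for 8 of the 10 genes, and Ier2 varies least between the types, from means of 120 to 232.

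Among the AP-1 genes, Fosb was the most unequal between cell types. In the Myoc and Apod cluster it was at 230, 295, 66.9 and 250 CPM in Ctrl 1, Ctrl 2, HLU 1 and HLU 2. In monocytes the same 4 libraries gave 5.23, 9.77, 2.07 and 0.949. All 4 values of the cluster lay above all 4 values of the monocytes, and Fosb was lowest by mean in stage I neutrophils, 3.92 ± 3.13 (SD, n = 4). Droplets with under 1000 UMIs, which hold free RNA as well as small cells, had Fosb at 60.04, 57.8, 9.38 and 25.6 CPM, above its level in monocytes of the same library in 4 of 4 libraries. Fos was high both in the Myoc and Apod cluster, 639 ± 373, and in monocytes, 486 ± 120, stage II neutrophils, 460 ± 208, and stage I neutrophils, 421 ± 189, and these 4 neighbours did not differ beyond their spread. The Fos level of HLU 1 in the Myoc and Apod cluster rested on 10 UMIs. B cells had the lowest Fos, 71.0 ± 33.0.

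Jun was above every other type in the Myoc and Apod cluster, at 891, 1092, 925 and 925 CPM, and this was beyond the spread to megakaryocytes, the next type, in 4 of 4 libraries. Junb was at 811 ± 422 in that cluster and at 649 ± 190 in stage II neutrophils, which did not differ beyond the spread, and stage II neutrophils lay above T and NK cells (534 ± 241) in 4 of 4 libraries. Jund had its highest means in the Myoc and Apod cluster (714 ± 387) and in B cells (647 ± 417), and its lowest in neutrophil progenitors (128 ± 67.6). The wide SD of Jund came with a low value in 1 library. In B cells Jund was at 566, 707, 1163 and 152, with HLU 2 the lowest, and HLU 2 was also the lowest of the 4 libraries in monocytes, T and NK cells and stage II neutrophils. The B cells included a precursor cluster led by Vpreb1 and Igll1, with 43, 41, 129 and 1 cells in Ctrl 1, Ctrl 2, HLU 1 and HLU 2. Jund was at 1444, 993 and 1943 CPM in that cluster in Ctrl 1, Ctrl 2 and HLU 1.

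Egr1 and Atf3 had their 2 highest means in stromal types, the Myoc and Apod cluster and chondrocytes. Egr1 was at 808, 634, 435 and 342 CPM in the Myoc and Apod cluster, at 141, 175, 217 and 203 in chondrocytes, and at 11.2, 15.3, 6.40 and 4.82 in stage I neutrophils, its lowest type. Atf3 was at 720, 714, 234 and 398 in the Myoc and Apod cluster and at 15.7, 14.7, 5.93 and 0.827 in neutrophil progenitors. For both genes the cluster was above chondrocytes in 4 of 4 libraries and beyond the spread. In Atf3, monocytes (131.9 ± 53.9) had a higher mean than the stromal MSC (93.4 ± 48.9). Chondrocytes (172.5 ± 93.3) and monocytes did not differ beyond the spread, nor did monocytes and MSC. Nr4a1 was at 201, 142, 201 and 111 in the cluster, beyond the spread to B cells (48.8 ± 17.0). Dusp1 had no single top type, since chondrocytes (626 ± 220), stage II neutrophils (599 ± 307) and the Myoc and Apod cluster (489 ± 311) did not differ beyond their spread. Ier2 was unlike the rest, with its highest mean in neutrophil progenitors, 221, 289, 226 and 193, and its lowest in megakaryocytes, 120 ± 59.5. For Ier2 no type differed from the next one beyond the spread.

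The gene pairs that went together over the 40 sums of cell type and library were Atf3 with Dusp1 (Pearson's r = 0.858 on log2 of level plus 1, and 0.746 to 0.863 within single libraries), Junb with Dusp1 (0.815) and Fosb with Egr1 (0.788). The points share libraries and depth, so the correlations are given as descriptions. Among the 10 further genes whose pattern was most like the sum of the 10, out of 8056 genes, were Ptp4a1 (r = 0.907), Ifrd1 (0.887), Maff (0.863), 2310022B05Rik (0.863), Neat1 (0.846), Rab5a (0.837), Zfp503 (0.837), Kcmf1 (0.836) and P4ha1 (0.831). Against the same sum, of which it is a part, Atf3 reached 0.912, Fos 0.595 and Ier2 0.227.

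Neutrophils were the most numerous cells, and their stages differed in these genes. Stage I neutrophils were named from markers of immature cells such as Ltf, Ngp and Camp, and stage II neutrophils from markers of mature cells such as Cxcr2, Csf3r and Retnlg. Not every stage II cluster had them all. A cluster of 1007 cells led by Afp and Vwf had only Slpi, Msrb1 and Clec4d of that list raised, and Cxcr2 and Retnlg were not among the markers raised in a cluster of 1572 cells led by Ccrl2 and Ccl3. In stage II, 7 of the 10 genes were called higher than in stage I and none lower, by edgeR's quasi-likelihood test with the library as a block, at an adjusted p under 0.05 over all 10627 genes tested. Of all genes, 58.5% were called in either direction and 30.2% were called higher. The median log2 difference was 0.90 for the 10 genes and 0.06 for all genes.

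Dusp1, the MAP kinase phosphatase, was at 119, 198, 81.1 and 15.0 CPM in stage I and at 679, 920, 616 and 183 in stage II. Each library rose from stage I to stage II, by 2.89 ± 0.25 on the log2 scale (SE, adjusted p = 1.15e-05). Atf3 went from 25.1, 31.2, 6.93 and 1.62 to 106, 122, 71.8 and 12.3, a log2 difference of 2.61 ± 0.26 (adjusted p = 2.79e-05). Junb went from 245, 311, 164 and 125 to 681, 894, 572 and 446, with no overlap between the stages, a log2 difference of 1.75 ± 0.14 (adjusted p = 9.25e-06). Among the lesser differences, Jund rose by 1.05 ± 0.16, Fosb by 0.96 ± 0.23 and Egr1 by 0.83 ± 0.18. Jun rose by 0.48 ± 0.18 (adjusted p = 0.0417), and this call was lost when library totals were used in place of TMM factors (0.38, adjusted p = 0.10).

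Fos, the best known member, did not pass the test (0.20 ± 0.11, adjusted p = 0.150). It was at 472, 643, 381 and 189 in stage I and at 548, 671, 439 and 182 in stage II, higher in stage II in 3 of 4 libraries and overlapping throughout. Nr4a1 gave 0.73 ± 0.32 (adjusted p = 0.0737), and Ier2 gave -0.01 ± 0.19. Without Ctrl 2, Fosb also missed the threshold (0.73, adjusted p = 0.0756), and Jun missed it without Ctrl 1, without Ctrl 2 or without HLU 1.

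The other early response lists were tested in the same fit. Of 8 other AP-1 subunits tested 6 were higher in stage II, among them Fosl2 (1.47 ± 0.13) and Mafg (0.86 ± 0.11). Of 14 other early transcription factors 10 were higher, with Cebpb at 1.62 ± 0.20, and of 17 other early genes 13 were higher and 1 lower, with Btg1 at 1.96 ± 0.14 and Ier3 at 1.34 ± 0.12. Of 12 feedback regulators 9 were higher and 1 lower, with Zfp36, an RNA-binding protein that destabilizes cytokine messages, at 1.61 ± 0.13, and Spry2 at -2.12 ± 0.21. Of 22 upstream kinases and factors 13 were higher and 3 lower, with Mapkapk2 at 1.04 ± 0.16.

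The stages were not uniform. Among the 5 clusters that make up stage I, the 900 cells of a cluster marked by Krt83 had a summed level of 3711, 4080, 2813 and 1129 CPM in Ctrl 1, Ctrl 2, HLU 1 and HLU 2. The next highest cluster of the same library had 1723, 2068, 1609 and 686, so it was the highest in each. It held 225, 343, 303 and 29 cells, so HLU 2 had the fewest. Without it, the 7 genes called higher in stage II kept their calls. Fos and Nr4a1, which had missed the threshold with the cluster included, were then called higher in stage II as well. Stage II clusters lay between 1796 and 3145 CPM with the 4 libraries pooled.

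Monocytes, the precursors of osteoclasts, were set against stage II neutrophils in the same libraries. The type was 1 cluster of 1847 cells. Another cluster of 713 cells, led by Siglech and Cd7, had 8 monocyte and 4 dendritic cell markers raised. It was left unnamed and is in none of the main monocyte values. Egr1 was at 37.6, 48.5, 58.4 and 139 CPM in monocytes and at 15.9, 25.0, 9.77 and 10.2 in stage II neutrophils, so all 4 monocyte values were the higher ones. The log2 difference was 1.37 ± 0.44 (SE, adjusted p = 0.0269), and this call was lost without HLU 1 (1.28, adjusted p = 0.067) and with putative doublets left out (1.21, adjusted p = 0.0624). Dusp1 was lower in monocytes, at 310, 422, 333 and 104 against 679, 920, 616 and 183, a log2 difference of -1.79 ± 0.14 (adjusted p = 6.45e-05). Jund (-1.60 ± 0.14) and Junb (-1.37 ± 0.13) were also lower, in 4 of 4 libraries each.

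The other calls in this comparison rest on the scaling. With TMM factors Fosb (-1.41 ± 0.30), Ier2 (-1.15 ± 0.13), Jun (-0.99 ± 0.18) and Fos (-0.60 ± 0.20) were called lower as well, for 1 higher and 7 lower in all. Of all 10552 genes 66.7% were called, 33.5% higher and 33.2% lower. With library totals the median of all genes moved from 0.04 to 0.85, and 5705 genes were called higher and 1615 lower in place of 3533 and 3506. Then 2 of the 10 genes were called higher, Egr1 (2.16) and Atf3 (1.05), and 3 lower, Dusp1 (-0.99), Jund (-0.80) and Junb (-0.57), while Fos changed sign to 0.20 and was not called. Egr1, Dusp1, Jund and Junb kept their direction and their call under both scalings.

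MSC and the Myoc and Apod cluster were pooled, labelled osteoblast lineage cells, and set against monocytes. The label is wider than the markers, since no cluster was named as osteogenic precursors. The Myoc and Apod cluster had 4 osteogenic precursor markers and 5 MSC markers raised, with Aspn and Ogn also among its leading genes. Dcn was lower in HLU than in Ctrl in both of the pooled types. Fosb was higher by 4.74 ± 0.51 on the log2 scale (adjusted p = 0.000663), and the ratio within a library ran from 3.07 to 6.08. Egr1 was higher by 1.81 ± 0.54 (adjusted p = 0.0303), a call that was lost without Ctrl 1, without Ctrl 2 or without HLU 1. Jund was higher by 1.03 ± 0.16 (adjusted p = 0.00258), and Fos was lower, with a log2 difference of -0.81 ± 0.16 (adjusted p = 0.0071), each in 4 of 4 libraries. Nr4a1 missed the threshold at 0.87 ± 0.31 (adjusted p = 0.053) and passed it with library totals (0.99, adjusted p = 0.027). Of all 11691 genes, 48.2% were called, 27% higher and 21.3% lower. In the same comparison the related receptors Nr4a2 (3.04 ± 0.65) and Nr4a3 (3.85 ± 0.31) were higher.

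The main question of the study was what unloading changed. In all kept cells 3 of the 10 genes were lower in HLU at an adjusted p under 0.05, and none was higher, beside 23.2% of all 15385 genes called in either direction and 17.1% called lower. Fosb was at 44.5 and 47.2 CPM in Ctrl and at 8.84 and 3.29 in HLU, and the log2 fold change was -2.88 ± 0.48 (SE over the fit, adjusted p = 0.0159). Atf3 was at 190 and 129 in Ctrl and at 42.8 and 16.9 in HLU (-2.37 ± 0.49, adjusted p = 0.0275). Nr4a1 was at 37.3 and 32.7 against 16.1 and 14.8 (-1.11 ± 0.24, adjusted p = 0.0293). Neither HLU library overlapped a Ctrl library for these genes.

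Dusp1 (490 and 545 against 225 and 70.5) and Jund (494 and 482 against 361 and 64.3) did not pass the test, with log2 fold changes of -1.77 ± 0.54 and -1.18 ± 0.74. Junb, Egr1 and Jun had values of -0.87, -1.41 and -0.99 and did not pass either. Fos (-0.09 ± 0.35) and Ier2 (0.14 ± 0.26) were the nearest to 0. After TMM scaling 8 of the 10 genes had both HLU libraries below both Ctrl libraries, which 35.2% of all genes tested had. With 1 library left out the median log2 fold change of the 10 genes ran from -1.33 to -0.98, and the calls depended on which library was left out. DESeq2 called 5 of the 10, beside 20.7% of all genes.

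These sums over all kept cells mix the level per cell with the make-up of the library, and the 2 cannot be told apart in them. Stromal cell types gave 69.2% and 55.7% of the UMIs of the 10 genes in Ctrl and 4.66% and 5.79% in HLU. For Fosb the share was 88.4% and 79.9% in Ctrl and 39.4% and 44.1% in HLU, and for Atf3 it was 86.7% and 69.4% against 10.6% and 12.4%. Fos, with the least UMIs from stromal types, had 44.6% and 32.2% in Ctrl.

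Within cell types the same direction was seen but few tests passed. Of 97 tests of a gene in a cell type 88 had a negative log2 fold change, and the median over the genes was negative in 10 of 10 types, from -0.24 in MSC to -1.67 in megakaryocytes. The median over all genes tested in a type lay between -0.03 and 0.06. All these tests rest on the same 4 libraries, so they are not separate observations. With library totals the median in MSC was 0.05. Only 2 of the 97 tests passed at an adjusted p under 0.05 over all genes of the type, both in B cells. Here and below, genes with both HLU libraries below or above both Ctrl libraries are counted after TMM scaling. In B cells 8 of 10 genes were below (31.2% of all genes). Without that scaling Fos, Fosb, Junb and Ier2 overlapped there. Fos was at 69.0 and 107.9 CPM in Ctrl and at 78.9 and 28.2 in HLU. The count of calls within the types was 5 without Ctrl 1, 3 without Ctrl 2, 52 without HLU 1 and 17 without HLU 2, beside 1265, 1633, 18470 and 5432 calls over all genes in place of 2349. In B cells Atf3 was at 73.9 and 54.6 CPM in Ctrl and at 21.3 and 5.42 in HLU (-2.41 ± 0.52, adjusted p = 0.0185), and Dusp1 was at 326 and 285 against 97.4 and 12.5 (-2.69 ± 0.74, adjusted p = 0.0498), beside 14.6% of 10247 genes called. The number called in B cells was 1 without Ctrl 1, 2 without Ctrl 2, 8 without HLU 1 and 3 without HLU 2, beside 802, 1017, 2926 and 2265 of all genes.

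Among the blood cell types, B cells also had the largest fold between the groups in summed stromal markers. Dcn, the proteoglycan decorin of connective tissue, had a UMI in 95.9% and 93.0% of B cells in Ctrl and in 1.10% and 1.55% in HLU. When B cells were limited to those with at least 2 B cell markers and under 1% of UMIs from stromal markers (155, 306, 718 and 499 cells), a choice made after the data were seen, edgeR called 0 of the 10 genes, beside 0.763% of all genes, and 0 had an unadjusted p under 0.05. Atf3 then gave -0.997 (adjusted p = 0.931) and Dusp1 -1.40 (adjusted p = 0.907). Stromal markers in these limited B cells still summed to 1419 and 1421 CPM in Ctrl and to 42.1 and 50.1 in HLU. The precursor cluster held 129 of the B cells of HLU 1 and 1 of those of HLU 2, and its part in the B cell values was not tested.

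In stage I neutrophils the median was -1.33, with 10 of 10 genes lower in both HLU libraries than in both Ctrl libraries beside 23.9% of all genes. None passed by edgeR, where 3.15% of all genes did. DESeq2 called 4 (Atf3, Jun, Fosb and Nr4a1) and 2.26% of all genes. Atf3, nearest to the threshold, was at 25.1 and 31.2 in Ctrl and at 6.93 and 1.62 in HLU (-2.77 ± 0.55, adjusted p = 0.0518). Without HLU 1 edgeR called 9 of the 10, beside 2892 of 10404 genes, and without HLU 2 it called 2, beside 345 of 10406. Atf3 passed when the Krt83 cluster was left out (-2.71, adjusted p = 0.0215), of which HLU 2 held 29 cells, and when cells were limited to 0.2% haemoglobin UMIs (-2.79, adjusted p = 0.0471), the other 9 genes missing the threshold in both. Stromal markers in these cells summed to 1347 and 1668 CPM in Ctrl and to 54.0 and 15.7 in HLU. Of the stage I markers, Camp, Chil3 and Lcn2 were highest in HLU 2 and Ngp was lowest there. Chil3 was at 2883, 2774, 3667 and 7117 CPM in Ctrl 1, Ctrl 2, HLU 1 and HLU 2. The part of this in the stage I values was not tested.

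In stage II neutrophils the median was -0.93, and 8 of 10 genes were below in both HLU libraries beside 22.9% of all genes. By edgeR 0 of the 10 genes passed, where 2.69% of all genes did, and DESeq2 called Fosb and 1.85% of all genes. Fosb was at 8.56 and 19.8 against 4.04 and 0.667. Without HLU 2 the median was -0.52 and 0 of the 10 passed, and without HLU 1 it was -1.51 and 6 passed, where 2661 of 9343 genes did. Junb (-0.49 ± 0.40) and Ier2 (0.12 ± 0.37) were among the genes nearest to 0. Stage II cells of HLU 2 were also unlike the others in their own markers. Wfdc21 was at 974, 1612, 1209 and 7644 CPM in Ctrl 1, Ctrl 2, HLU 1 and HLU 2. Il1b, Cxcr2 and Slpi were also highest in HLU 2, and Csf3r, Ccl6, Retnlg, Msrb1, Clec4d and Trem1 were lowest. The cluster led by Ccrl2 and Ccl3 held 201, 293, 372 and 706 cells. The part of this make-up in the stage II values was not tested.

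In monocytes, the cells at the centre of the study, the median was -0.55, and -0.20 without HLU 2. By edgeR 0 of the 10 genes passed, where 0.268% of all genes did, and DESeq2 called 0 and 0.772% of all genes. Of the 10 genes 6 were below in both HLU libraries and 1 above, beside 21% and 17.5% of all genes. Of these 6, Atf3 and Dusp1 overlapped without TMM scaling. Atf3 was then at 133 and 191 CPM against 143 and 60.6, and Dusp1 at 310 and 422 against 333 and 104. Without HLU 1 edgeR called 6, of which 1 was higher, beside 2396 of 9942 genes. Fos was at 428 and 587 in Ctrl and at 584 and 344 in HLU, so the groups overlapped (-0.17 ± 0.35). Junb was at 394 and 569 against 371 and 386 (-0.37 ± 0.31). Egr1 was the gene above in both HLU libraries, at 37.6 and 48.5 in Ctrl and at 58.4 and 139 in HLU (1.20 ± 0.49, adjusted p = 0.803). Ier2 (0.23) and Nr4a1 (0.17) also had values above 0, with overlapping groups. Stromal markers in monocytes summed to 1643 and 1199 CPM in Ctrl and to 37.0 and 37.6 in HLU. Monocytes of HLU 2 (990 cells) were also unlike the others in their own markers. F13a1 was at 631, 657, 580 and 94.5 CPM in Ctrl 1, Ctrl 2, HLU 1 and HLU 2. Ccr2, Csf1r, Fn1, Ctss, Cx3cr1 and Lyz2 were also lowest in HLU 2. Ly6c2 and Ms4a6c were highest there, with Ms4a6c at 306, 251, 498 and 683. The part of this make-up in the monocyte values was not tested. The unnamed cluster with monocyte markers, with 55, 95, 139 and 424 cells in the 4 libraries, was outside these values.

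Whether the HLU effect differed between monocytes and stage II neutrophils was tested with an interaction term. By edgeR 0 of the 10 genes passed, beside 0.0474% of 10552 genes, and DESeq2 called 0 (0.264% of all genes). Egr1 had the largest difference, 2.01 ± 0.42 (adjusted p = 0.246), with values of 2.30 without HLU 1 and 1.42 without HLU 2. Without HLU 1 the difference was 1.40 for Atf3 and 0.79 for Fos.

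In the remaining 6 types 0 of the genes passed by edgeR. Of all genes 0.986% did in MSC, 0% in the Myoc and Apod cluster, 0.412% in T and NK cells, 0% in chondrocytes, 0.254% in megakaryocytes and 0.911% in neutrophil progenitors. DESeq2 called Fos in megakaryocytes (0.368% of all genes called), Junb, Dusp1 and Egr1 in the Myoc and Apod cluster (1.62%) and Dusp1 in MSC (3.6%), and none of the 10 in T and NK cells (0.247%), chondrocytes (2.31%) and neutrophil progenitors (1.54%). Both HLU libraries were below both Ctrl libraries for 9 of 10 genes in neutrophil progenitors (18.6% of all genes), 8 of 9 in megakaryocytes (20.8%), 8 of 10 in chondrocytes (27.7%) and in the Myoc and Apod cluster (29.5%), and 3 of 8 in T and NK cells (17.2%). In MSC 6 of 10 were below and 2 above, beside 28.5% and 26.7% of all genes. Without TMM scaling Atf3, Junb and Jund overlapped in MSC, and Ier2 was above, at 114 and 124 CPM against 143 and 132. Among others, Ier2 in neutrophil progenitors overlapped then, as did Jun in the Myoc and Apod cluster, T and NK cells and megakaryocytes. Fosb in megakaryocytes was at 38.0 and 46.1 in Ctrl and at 5.01 and 4.41 in HLU, and Dusp1 in MSC was at 557 and 561 against 281 and 210. The megakaryocytes were only 38 and 30 cells in Ctrl and 39 and 45 in HLU. Stromal markers in them summed to 7382 and 1766 CPM in Ctrl and to 58.4 and 47.1 in HLU. MSC were also unlike between the groups in their own markers, with Dcn at 31391 and 27924 CPM in Ctrl and at 1371 and 4077 in HLU, from 821 and 598 cells against 45 and 73. Without HLU 2 the medians were -0.58 in neutrophil progenitors and -0.33 in T and NK cells.

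The HLU libraries also differed from each other. HLU 2 was below HLU 1 in Jund in all 10 types, with log2 ratios between -1.94 and -2.93. In T and NK cells 8 of the 10 genes, and in B cells 7 of the 10, were lower in HLU 2 by more than 1 on the log2 scale, against 13.2% and 9.45% of all genes. In stage II neutrophils it was 5 of 9 genes against 27.3%, and in monocytes 4 of 9 against 11.2%. Not all ratios were below 0. In the Myoc and Apod cluster Fos (3.01) and Fosb (1.89) were higher in HLU 2, with Fos of HLU 1 resting on the 10 UMIs given above, and Egr1 was higher in neutrophil progenitors (2.10) and monocytes (1.24). The median ratio of Ctrl 2 to Ctrl 1 over the 10 genes lay between 0.03 and 1.08 on the log2 scale in these types. HLU 2 was also the deepest library and had the fewest barcodes under 1000 UMIs, 267 against 2143 to 2585.

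**Figure D2:**
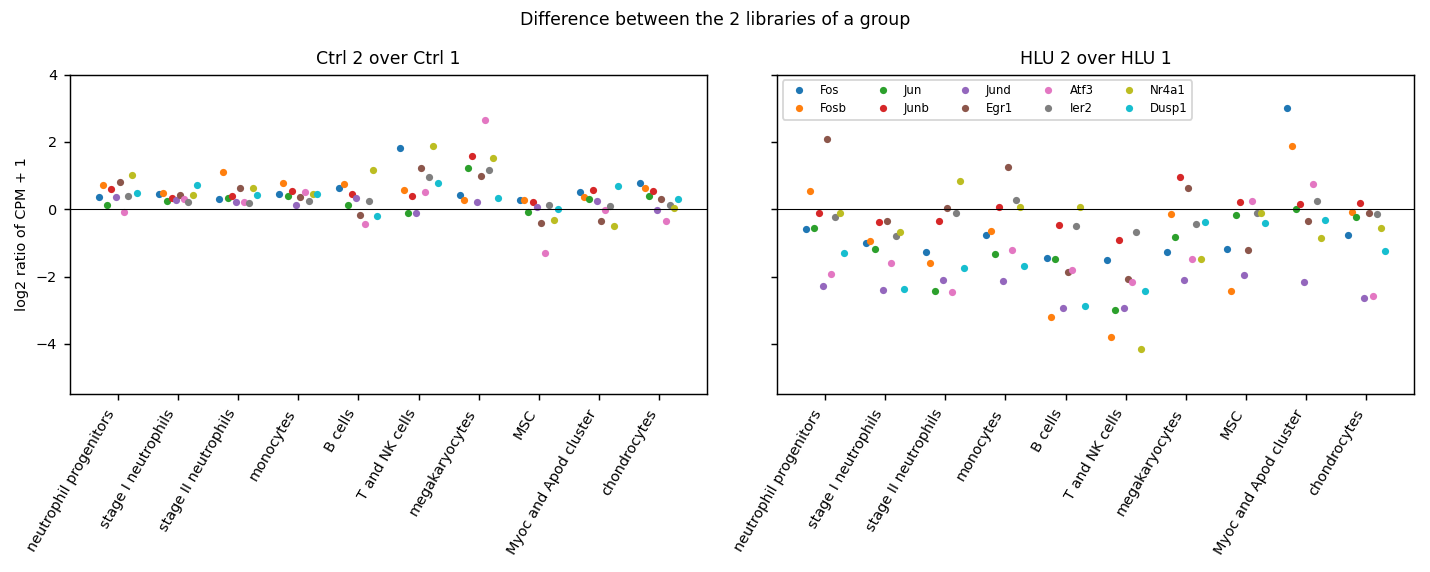
Log2 ratio between the libraries of a group (HLU 2 to HLU 1, and Ctrl 2 to Ctrl 1) for each immediate early gene in the cell types. The HLU ratios reach below -2, with Jund between -1.94 and -2.93, and up to 3.01 for Fos in the Myoc and Apod cluster, and the medians of the Ctrl ratios lie between 0.03 and 1.08.

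The other early response lists also held genes called lower in HLU in all kept cells, where 17.1% of all genes were called lower and 932 of 15385 higher. Of 9 other AP-1 subunits 3 were called lower (Batf3, Maff and Fosl1), of 14 other early transcription factors 6, led by Klf4 (-4.37 ± 0.37) and Nr4a2 (-3.57 ± 0.32), and of 18 other early genes 8, led by Ctgf (-5.66 ± 0.42). Of 16 feedback regulators 4 were lower, among them Spry4 (-3.03 ± 0.42) and Spry2 (-2.15 ± 0.35). No gene of these lists was called higher. Of 22 upstream kinases and factors 3 were higher, Rps6ka1 (1.96 ± 0.39), Mapk14 (1.65 ± 0.26) and Mkl1 (1.31 ± 0.26), and none was lower. Ctgf, a matrix protein of connective tissue cells, fell in all 3 neutrophil types, monocytes, T and NK cells, B cells and megakaryocytes. The summed stromal marker level was lower in HLU in all 10 types, and its part in the Ctgf values was not tested.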

How the data were processed

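The 4 mouse bone libraries (2 Ctrl and 2 HLU) were made with the 10x Genomics 3′ v3.1 chemistry, and the groups were taken from the treatment labels. The authors deposited matrices of UMI counts per gene and barcode, made per the labels with Cell Ranger 6.0.0 on mm10, and named Seurat 4.1.0 for later steps. The totals were 47819046 to 99849070 UMIs per library.

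Barcodes with 1000 to 40000 UMIs and at most 10% mitochondrial UMIs were kept. Doublets were marked with Scrublet (scanpy 1.11.5), 431 to 720 per library, and kept in the main results. Cells were clustered in Seurat 5.3.0 (anchors, 2000 variable genes, 50 components, resolution 1), with 90 genes left out of the variable genes, namely the 10 immediate early genes and the further lists. Of 31 clusters 28 were named, from at least 3 markers each, apart from the Myoc and Apod cluster, which is called by its leading genes. No annotation of the cells by the authors was used.

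The counts of a cell type were added up within each library and tested with edgeR 4.0.16 (quasi-likelihood test, TMM factors, filterByExpr, Benjamini-Hochberg adjustment over all genes tested, threshold 0.05), with the library as a block between cell types. DESeq2 1.42.0 was an alternative, with RLE factors, no filter, each library left out, doublets left out, a haemoglobin limit of 0.2%, the replicate block and other clusterings. Nothing ties the labelled replicates to separate batches. For HLU against Ctrl, p-values measure only the spread between 2 libraries per group. Between cell types they measure the spread of the difference within libraries over the 4 libraries. Levels are counts scaled to 1000000 per sum (CPM), and SDs are over 4 libraries. The SE of an edgeR log2 fold change was computed as its absolute value divided by the square root of the F statistic of its test. On simulated counts with 200 changed genes at 4-fold, 195 were recovered for HLU against Ctrl in stage II neutrophils (8951 genes, 2 false calls). In monocytes 191 of 198 were recovered (9508 genes, 4 false calls). For monocytes against stage II neutrophils 200 of 200 were recovered (9871 genes, 13 false calls). Recovery at the spread seen here between the libraries of a group was not tested. Fosb in stage II neutrophils, with an HLU log2 fold change of -2.64 ± 0.75, was not called (edgeR adjusted p = 0.233).

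The 10 genes and the further lists were chosen with earlier results of these data known. Named are all 10, the 3 highest genes of each further list and genes past a threshold in a comparison given, and the 10 other genes of at least 10 CPM most correlated with the summed profile, of which 1 is not reported here.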

Additional observations from a re-analysis of the deposited data

Results flagged for a closer look

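After TMM scaling, both HLU libraries lay above both Ctrl libraries in 1 cell type and below them in other cell types for 3 of the genes. Egr1 in monocytes had a log2 fold change of 1.20, and it was -1.81 in B cells, -1.24 in the Myoc and Apod cluster, -2.15 in megakaryocytes, -1.20 in stage I neutrophils and -0.86 in stage II neutrophils. Against stage II neutrophils the difference was tested (interaction of 2.01 on the log2 scale, edgeR adjusted p = 0.246), and against the other types it was not tested. Fos in MSC had a log2 fold change of 0.80, and in 6 other types both HLU values were lower than both Ctrl values, and the difference was not tested. Jun in MSC had 0.36, with both HLU libraries below in 9 other types, and this difference was not tested either. The MSC of HLU were 45 and 73 cells, with Dcn at 1371 and 4077 CPM against 31391 and 27924 CPM in Ctrl, and the cells also fell into different clusters. One MSC cluster, with Npy among its leading genes, held 459 and 323 cells in Ctrl and 1 and 24 in HLU, and the other, led by Clic5 and Fgf7, held 362 and 275 against 44 and 49. Within the latter Fos was at 135 and 200 CPM in Ctrl and at 473 and 262 in HLU, and Jun at 226 and 301 against 449 and 442, with no test run. The part of this make-up in the MSC values was not tested.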

How the results depend on the processing

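Of 462 values of 36 results on single genes, 387 kept their direction and their side of the threshold, 21 gained a call, 39 lost one and 15 changed sign. For HLU against Ctrl in all kept cells the 3 calls became 5 with DESeq2 and 0 to 8 when 1 library was left out. Within cell types the 2 calls became 12 with DESeq2, 22 without the filter on low counts, 13 with the replicate block, 1 at resolution 0.5 (8 types), 0 at resolution 2, 0 without integration (9 types), 1 with library totals, 0 with the restricted B cells, and 3 to 52 with 1 library left out. Genes called there were 2349 as reported, and 3879, 7063, 857, 418 and 917 with DESeq2, without the filter, at resolution 2, without integration and with the restricted B cells. Library totals, the restricted B cells and stage I without its Krt83 cluster were added after the data were seen.

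Between cell types the 7 calls in stage II against stage I neutrophils became 5 to 8 with 1 library left out, the 8 in monocytes against stage II became 6 to 8, and 5 with library totals, and the 4 in osteoblast lineage cells became 3 to 5. The interaction had 0 calls, and 1 without the filter, and its calls also depended on which library was left out. Genes called for it were 5, and 47 with DESeq2, 197 without the filter and 0 with RLE factors. The summed levels of stage II neutrophils and monocytes moved by less than their SD in every setting run, and that of the Myoc and Apod cluster moved by more at resolution 0.5 (3046 in place of 5215 CPM). With each cell thinned to 1000 UMIs, 9 of 100 levels of single genes moved by over 1 SD, among them Nr4a1 in MSC (35.8 to 52.0 CPM) and in monocytes (28.6 to 35.8), Junb in MSC (411 to 463) and Ier2 in chondrocytes (163 to 139).

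The sign changed for Ier2 in stage II against stage I, from -0.01 to 0.0079 with DESeq2, 0.014 with RLE factors, 0.078 at resolution 0.5, 0.0074 at resolution 2, 0.11 without integration and 0.031 without the Krt83 cluster, and -0.30 to 0.12 with 1 library left out. In monocytes against stage II, Fos (0.20) and Nr4a1 (0.41) turned positive with library totals, and Atf3 turned to -0.046 at resolution 2 and ranged from -0.016 to 0.45 with 1 library left out. Fos in all kept cells ranged from -0.35 to 0.18. The cause of these changes was not tested, other than that leaving out a library leaves fewer samples and 1 group with a single library, which is then assumed to vary like the other group.

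Replicate numbers are shared between the groups, but nothing in the labels ties the mice of a number. Deviations of same-numbered libraries had a correlation of -0.138 in all kept cells, 0.238 in neutrophil progenitors and -0.088 to 0.077 in the other types. With the replicate block 3 of the 10 genes were called in all kept cells (Fosb, Atf3 and Dusp1) among 3428 genes. Precision is limited by 2 libraries per group and, for stromal types in HLU, by 21 to 109 cells. Megakaryocytes held 30 to 45 cells per library.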

Other observations

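In HLU 2 the 267 barcodes with under 1000 UMIs had Jund at 343 CPM (67 UMIs), and the kept cells of the same library had 64.3 CPM. In HLU 1 the values were 335 CPM in 2143 such barcodes and 361 CPM in kept cells. Jun in HLU 2 was at 281 CPM (55 UMIs) and Dusp1 at 271 CPM (53 UMIs) in these barcodes, with Dusp1 at 70.5 CPM in the kept cells. These barcodes belong to no comparison above, and the values were singled out after they were seen.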
